A study of Mus musculus with 12 samples.

Results

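The genes described here are 50 mouse genes of mitosis and of the G2/M phase, the last steps of the cell division cycle. They were found as the probe sets whose annotated symbol is one of those names. Of the 50, 49 had a probe set (112 of the 45101 on the array) and 48 were bright enough to be tested, among 12385 genes tested in all. Ccnb1, which encodes cyclin B1, had no probe set named for it alone and was not analysed here. The probe set of Ndc80, a kinetochore subunit, stayed under the filter on dim signals with values from 4.96 to 45.6. The samples were renal cortex of ICGN mice, labelled with nephrotic syndrome, and of ICR mice, labelled normal, at 8 and at 4 weeks of age. ICGN is an ICR-derived strain with hereditary glomerular disease that carries a mutation of Tns2, and the labels name no treatment. Each of the 4 groups had 3 arrays: ICGN at 8 weeks, ICR at 8 weeks, ICGN at 4 weeks and ICR at 4 weeks.

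Cyclin A and cyclin B with the kinase CDK1 drive cells into mitosis, the Aurora and Polo-like kinases organise chromosomes and spindle, and the spindle checkpoint holds back the anaphase-promoting complex until every kinetochore is attached. Transcripts of these proteins build up in G2 and fall after division, so that their level in a tissue follows the number of cells in cycle. In the mouse kidney tubule cells still divide in the young animal, become largely quiescent in the adult, and can re-enter the cycle after injury.

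Signals are the authors' MAS5 intensities, brought here to one median for all arrays. As deposited, all 8-week arrays had a trimmed mean of 500 and all 4-week arrays one of 100, so the ages had been scaled apart. Whether the ages also differed in handling is not stated in the labels, and any such difference cannot be told apart from age. Strain comparisons within an age do not cross that divide. In the difference between them, a shift that is equal in both strains cancels. The labels do not say how many mice a replicate holds, so the p-values cover only the spread of these samples, and 3 arrays a group limit the precision of every value. Tns2, the check of the strain labels, stood at 74.2 ± 35.2 in ICGN and 319.9 ± 14.6 in ICR at 8 weeks and at 78.2 ± 15.9 in ICGN and 332 ± 13.0 in ICR at 4 weeks (mean ± SD, n = 3). It was lower in ICGN at both ages (limma adjusted p = 1.2e-05 and 2.1e-04). A gene is said to have risen or fallen only where limma gave an adjusted p up to 0.05. All fold changes are log2 values of signal + 9, set against the median tested gene in that comparison, and ± is their standard error from the fit. The adjusted p beside a fold change tests the value before that median was taken off, and not the printed value. The median tested gene itself lay at -0.19 in the strain comparison at 8 weeks, -0.17 in the difference between the 2 strain comparisons, and between -0.08 and 0.09 in the others.

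Mitotic transcripts were high at 4 weeks and low at 8 weeks in both strains. The group means ran in the order ICR at 4 weeks, ICGN at 4 weeks, ICGN at 8 weeks and ICR at 8 weeks, highest first, for 40 of the 48 members, against 5.19% of all tested genes. The median signal of the 48 members was 58.5, 59.7 and 70.1 in the ICGN arrays and 46.0, 38.2 and 51.7 in the ICR arrays at 8 weeks, against 155, 162 and 144 in ICGN and 210.2, 146 and 166 in ICR at 4 weeks. At 8 weeks the 3 ICGN arrays lay above the 3 ICR arrays on this measure, while at 4 weeks the strains overlapped. Fewer cycling cells and less transcript in each cell cannot be told apart in whole cortex. The second ICR array at 4 weeks was the lowest of its group for 43 of 48 members (47.3% of all tested genes), and the third ICGN array at 8 weeks was the highest of its group for 41 of 48 (63.8% of all tested genes). Many members were dim at 8 weeks: 14 of 48 lay at or below the array median in all 3 ICR arrays, and 7 did so in all 3 ICGN arrays. In contrast, 47 of 48 lay above it in all 6 arrays at 4 weeks. With the 4-week arrays alone all 48 would have passed the filter on dim signals, and with the 8-week arrays alone 33.

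**Figure D1:**
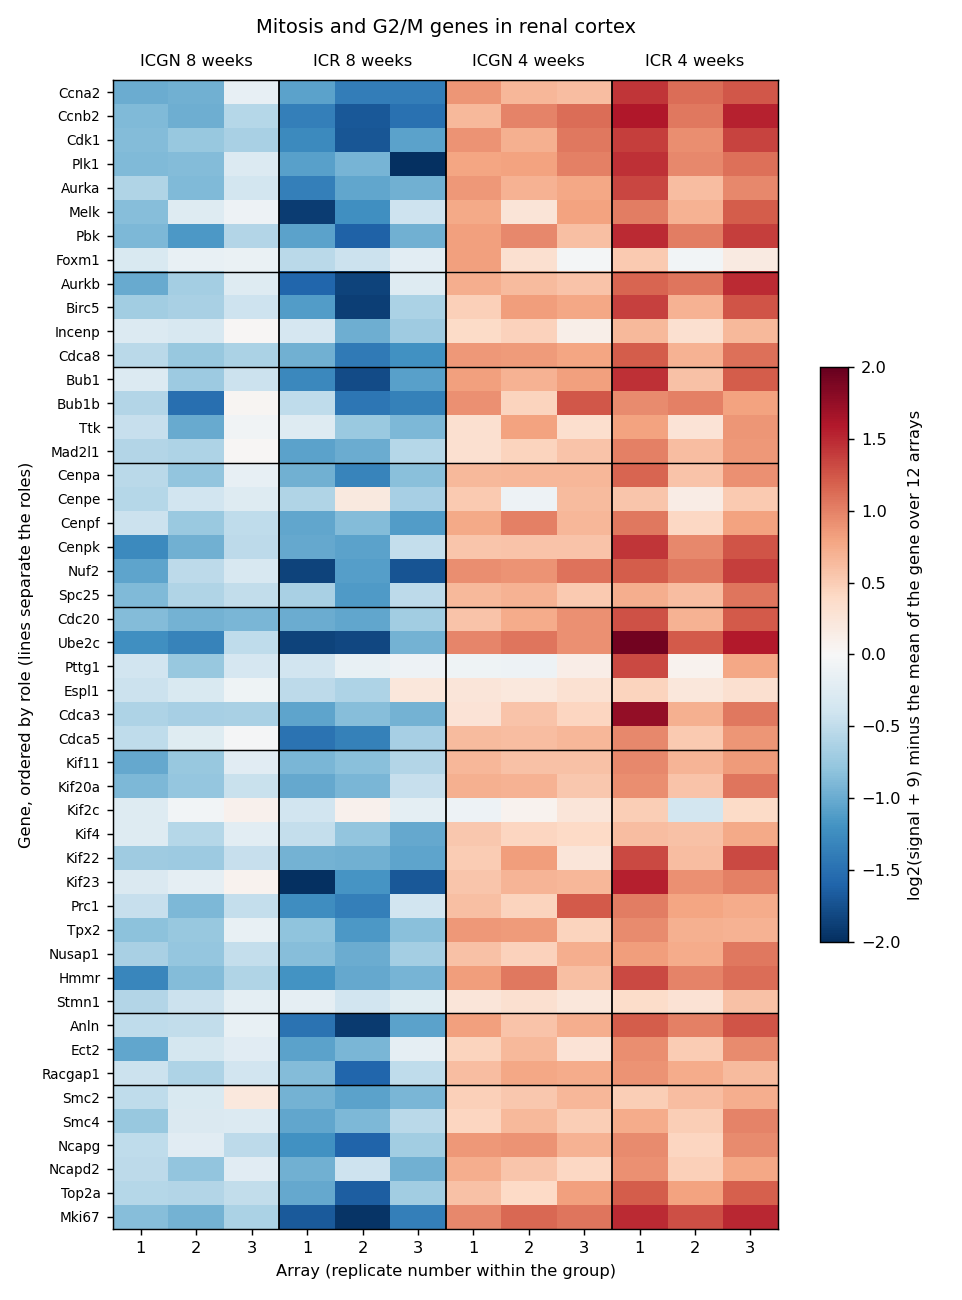
Level of the 48 tested members (rows, ordered by role) in each of the 12 arrays (columns, replicate number below), as log2(signal + 9) minus the mean of the gene over all arrays. The 4-week arrays on the right are nearly all above the gene mean, the ICR arrays at 8 weeks are mostly lowest, and the 4 group means follow one order, with ICGN at 8 weeks between, for 40 of 48 genes.

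The 4 members whose strain difference changed most clearly between the ages, by the p of that test, were Kif23, Mki67, Anln and Ccnb2, and their promoters are shown because many G2/M genes share short promoter elements. The CHR (cell cycle genes homology region, TTTGAA) is bound by MuvB complexes, which repress such genes in quiescent cells and activate them in G2, and the CCAAT box is bound by NF-Y. Each sequence runs 5′ to 3′ from 250 bases before to 50 bases after the RefSeq start (build GRCm38.p6, minus strand in all 4), and capitals mark CHR letters (TTTGAA or its complement TTCAAA) and CCAAT letters (CCAAT or ATTGG). They are chr9:61946750-61947049 for Kif23, chr7:135716330-135716629 for Mki67, chr9:22389157-22389456 for Anln and chr9:70421505-70421804 for Ccnb2.
Kif23: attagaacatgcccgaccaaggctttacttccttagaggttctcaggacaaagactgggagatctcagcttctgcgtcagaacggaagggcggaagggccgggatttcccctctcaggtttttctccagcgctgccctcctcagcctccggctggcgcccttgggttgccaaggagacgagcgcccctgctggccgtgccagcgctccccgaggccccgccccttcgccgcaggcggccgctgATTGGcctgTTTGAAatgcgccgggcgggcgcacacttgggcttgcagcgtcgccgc
Mki67: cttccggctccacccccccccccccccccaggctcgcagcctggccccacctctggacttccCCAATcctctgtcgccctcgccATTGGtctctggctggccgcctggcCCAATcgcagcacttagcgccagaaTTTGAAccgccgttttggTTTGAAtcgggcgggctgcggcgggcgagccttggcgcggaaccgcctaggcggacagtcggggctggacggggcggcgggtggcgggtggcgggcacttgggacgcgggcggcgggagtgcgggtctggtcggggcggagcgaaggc
Anln: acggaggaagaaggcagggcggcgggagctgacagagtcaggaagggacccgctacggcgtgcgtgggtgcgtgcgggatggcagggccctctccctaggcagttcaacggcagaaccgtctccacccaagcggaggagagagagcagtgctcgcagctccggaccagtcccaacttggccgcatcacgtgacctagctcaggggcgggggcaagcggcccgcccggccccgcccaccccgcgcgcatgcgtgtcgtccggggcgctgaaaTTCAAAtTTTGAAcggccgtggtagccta
Ccnb2: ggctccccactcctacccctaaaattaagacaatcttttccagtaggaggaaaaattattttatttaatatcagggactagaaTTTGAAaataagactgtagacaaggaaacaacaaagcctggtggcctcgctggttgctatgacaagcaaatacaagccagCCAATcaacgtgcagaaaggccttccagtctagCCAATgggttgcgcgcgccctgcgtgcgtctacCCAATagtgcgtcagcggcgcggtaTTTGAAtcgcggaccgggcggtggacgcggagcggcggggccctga
Counted with the start base as 1 and with no 0, the CHR letters of Kif23 begin at 3, close to CCAAT letters on the other strand at -7. Anln has CHR letters at 22 and 29, on opposite strands, and no CCAAT letters. Ccnb2 has CHR letters at 5 and at -167 and CCAAT letters at -87, -54 and -21. Mki67 has CHR letters at -116 and -98 and 3 CCAAT matches upstream of them.

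Of the 50 members 41 had a promoter in the RefSeq table. CHR letters occurred in 31 of these 41 windows (75.6%), against 18.1% of the windows of all 27025 genes and 4 of 26 DNA replication genes (15.4%). Between 50 bases before and 50 after the start they occurred in 28 members (68.3%), against 4.92% of all genes. CCAAT letters were in 31 members (75.6%), 37.9% of all genes and 65.4% of the DNA replication genes, and 27 members (65.9%) held both elements, against 7.12% of all genes. E2F letters, the sites of the factors that switch on S-phase genes (TTTCCCGC or TTTGGCGC on either strand), were in 2 members (4.88%), 1.63% of all genes and 38.5% of the DNA replication genes. In 1 member promoter the letters of a CHR and a CCAAT match overlapped. A match is a description of these letters and not a measured binding site. The median difference between the strain comparisons was 0.87 on the log2 scale in the 30 tested members with CHR letters and 1.04 in the 9 without; this difference was not tested.

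**Figure D2:**
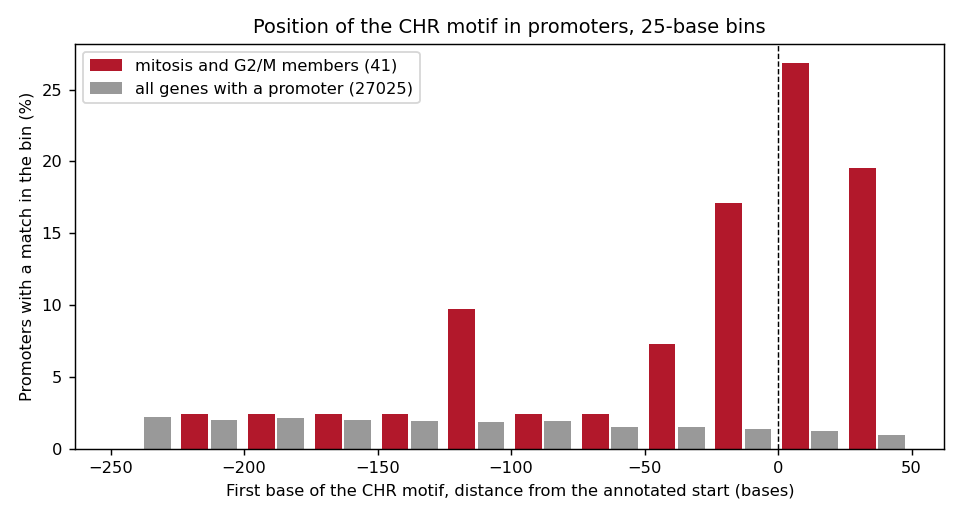
Share of promoters (vertical axis, percent) with CHR letters beginning in each bin of 25 bases, by distance from the annotated start (horizontal axis, bases), for the 41 members with a promoter and for all 27025 genes. The members stand highest from 0 to 25 bases after the start, at 26.8% against 1.25% of all genes, and fall to 2.44% or less in most bins further upstream.

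The strain comparison at 8 weeks asks whether cortex of the nephrotic strain held more mitotic transcript than normal cortex of that age. Of the 48 members 14 rose in ICGN and 0 fell, where 34.6% of all tested genes were called, 8.53% higher and 26.1% lower. The median of the members was 0.62, and 47 of 48 lay above the median tested gene. Of the 33 members that would have passed the filter with the 8-week arrays alone 11 rose, with a median of 0.64. Nuf2, Bub1 and Ncapg, called but not among those 33, lay below the array median in every array of both strains at 8 weeks. In 20 members the 3 ICGN arrays lay above the 3 ICR arrays, against 11.2% of all genes, and in 0 below them, against 33.3%. Kif23 led with 1.71, followed by Anln (1.29), Nuf2 (1.12), Bub1 (1.09), Cdca5 (1.09) and Mki67 (1.04). The values of Nuf2 and Bub1 depend on the offset, since their ICR signals lie near it, and ran from 0.56 to 1.85 and from 0.61 to 1.54 over 22 alternatives each, against 0.83 to 1.16 for Mki67. Smc2, Cdk1, Ccnb2, Ccna2, Top2a, Ncapg, Cdca8 and Mad2l1 rose by 0.67 to 0.96 on the log2 scale. The calls of Kif23, Anln, Mki67, Ccnb2, Smc2 and Cdca5 held with any 1 of the 12 arrays left out. The number called was 9 without the third ICGN array at 8 weeks, 8 without the second ICR array at 8 weeks and 21 without the third ICR array at 8 weeks. Of all 12385 tested genes 748, 862 and 933 were called higher in these fits, in that order. With only the 8-week arrays fitted 7 members were called, all higher, where 887 of all tested genes were called higher and 2406 lower. Under the authors' scaling 28 members rose. Of all genes that scaling called 2227 higher and 1486 lower, against 1057 higher and 3228 lower here.

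At 4 weeks 0 of the 48 members passed the limma test in either direction, where 2.99% of all tested genes were called, 1.59% higher and 1.4% lower. Of the 48 members 13 had an unadjusted p below 0.05, against 1869 of all 12385 tested genes. The median of the members was -0.22 and 45 of 48 lay below the median tested gene. The 3 ICGN arrays lay below the 3 ICR arrays in 13 members, against 12.1% of all genes, and above them in 0, against 10.8%. Without the second ICR array at 4 weeks 2 members passed, Cdca3 at -0.94 (limma adjusted p = 0.0181) and Pttg1 at -1.02 (0.00687). With the 4-week arrays fitted alone Ccna2 and Cenpk passed, at -0.52 and -0.63. Of all tested genes 1.88% were called without that ICR array and 3.97% with the 4-week arrays alone.

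The difference between these strain comparisons (8 weeks minus 4 weeks) tests directly whether the strains diverged with age. It was above the median tested gene in all 48 members, with a median of 0.87, and 11 members passed upward and 0 downward, where 7.88% of all tested genes were called, 2.2% upward and 5.68% downward. The 11 were Kif23 (2.23 ± 0.34, limma adjusted p = 0.00489), Anln (1.73 ± 0.27, limma adjusted p = 0.00522), Mki67 (1.40 ± 0.21, limma adjusted p = 0.00495), Ccnb2, Ccna2, Cdca5, Cdca3, Top2a, Cdk1, Mad2l1 and Smc2. All but Cdca3 were also among the 14 that rose at 8 weeks. The 4 of that comparison that did not pass here were Nuf2 (1.35, adjusted p = 0.0698), Bub1 (1.39, 0.0571), Cdca8 (0.90, 0.0641) and Ncapg (0.87, 0.252). Kif23, Anln, Mki67 and Ccnb2 kept the call with any 1 array left out, and each of the other 7 lost it without any of 4 to 11 of the 12 arrays. The count was 4 without the second ICGN array at 4 weeks, 5 without the first ICGN or the first ICR array at that age, and 6 without the third ICGN or the third ICR array at 4 weeks or the third ICGN array at 8 weeks. Without the first ICGN array or the second ICR array at 8 weeks it was 7. Of all tested genes 141 to 219 passed upward in these fits.

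From 4 to 8 weeks the members fell in both strains. In ICGN 42 of 48 were lower at 8 weeks and 0 higher, where 19.3% of all tested genes were called, 6.44% higher and 12.8% lower, and the median change was -1.15 (2.22-fold lower). In ICR 47 of 48 were lower and 0 higher, where 28.8% of all tested genes were called, 18% higher and 10.7% lower, with a median of -2.04 (4.10-fold lower). Of the members 15 entered the test only through the 4-week arrays, where they were high; of the other 33, 28 were lower in ICGN and 32 in ICR, with medians of -1.07 and -1.94. All 3 arrays at 8 weeks lay below all 3 at 4 weeks for 47 members in ICGN, against 25.8% of all genes, and for 46 in ICR, against 15.9%. The change was smaller in ICGN than in ICR for 48 of 48 members, which restates the difference between the strain comparisons. Ube2c changed most in both strains, by -1.93 in ICGN and -3.21 in ICR. By the probe sets that stand for the genes, Kif2c did not pass in either, and Foxm1, Incenp, Cenpe, Pttg1 and Espl1 did not pass in ICGN. Other probe sets of Incenp and Pttg1, tested on their own, were called lower with age in ICGN (-0.60 and -0.45).

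**Figure D3:**
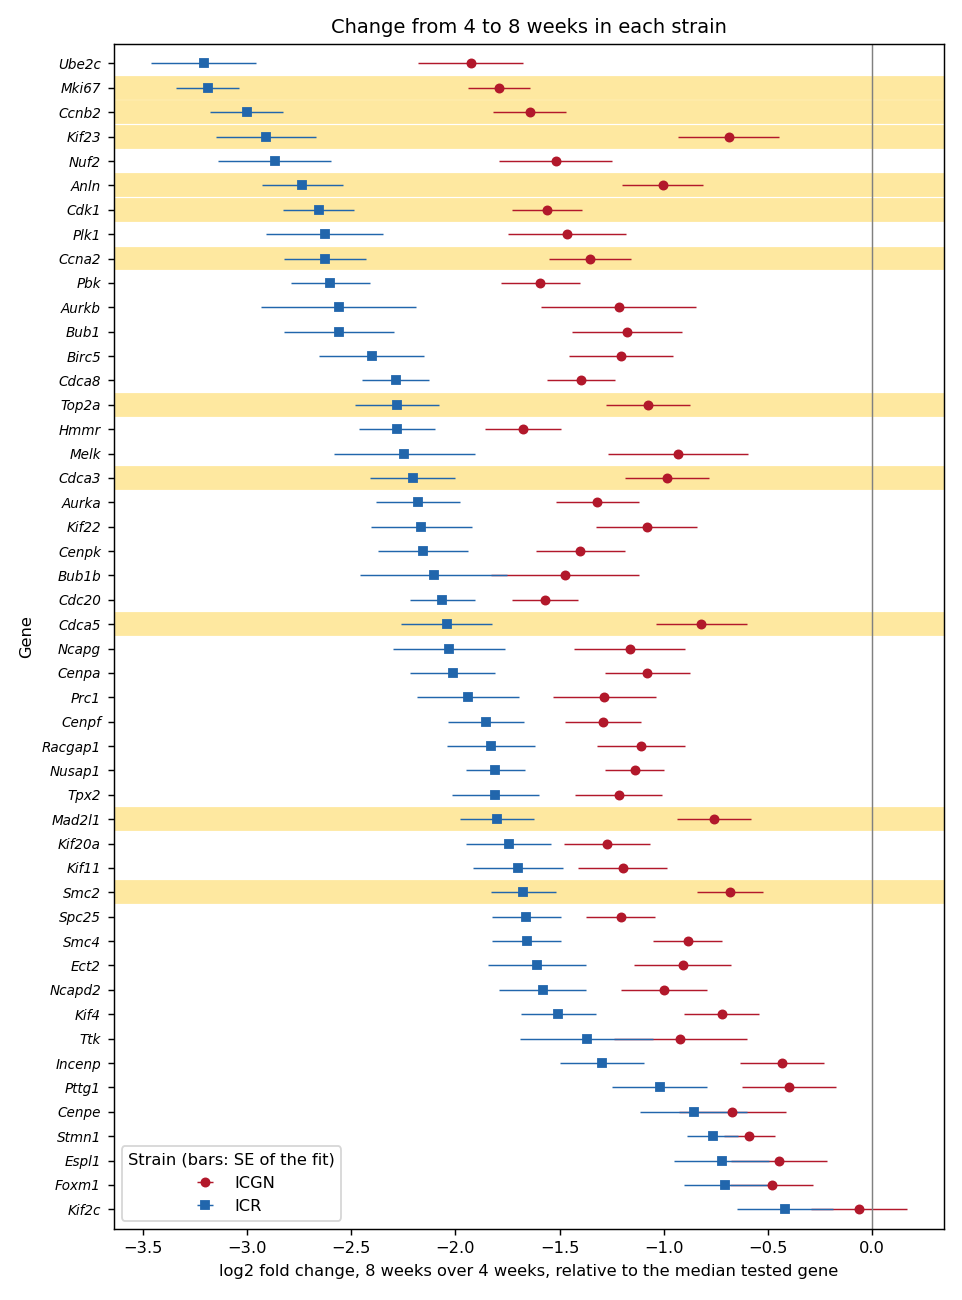
Log2 fold change of each tested member at 8 weeks over 4 weeks (horizontal axis, relative to the median tested gene, bars are the SE of the fit) in ICGN (red circles) and in ICR (blue squares), with genes ordered by the ICR value. Shaded genes are the 11 that passed the test of the difference between strains, and every ICGN point lies to the right of its ICR point.

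Among the cyclins, kinases and their activators 8 of 9 members were tested, and 3 rose in ICGN at 8 weeks. For this class and those that follow, the share of all tested genes called higher at 8 weeks was 8.53%. Ccnb2, cyclin B2, had signals of 94.5, 88.1 and 119 in ICGN and 64.7, 49.9 and 58.9 in ICR at 8 weeks. At 4 weeks Ccnb2 had 288, 371 and 403 in ICGN and 571, 385 and 544 in ICR. The ICGN arrays lay above the ICR arrays at 8 weeks (log2 fold change 0.89 ± 0.17, limma adjusted p = 0.00611), and the strains overlapped at 4 weeks. Cdk1, the kinase that the A and B cyclins activate, stood at 114, 124 and 134 in ICGN and 84.4, 59.8 and 98.0 in ICR at 8 weeks. At 4 weeks Cdk1 had 408, 357 and 456 in ICGN and 574, 419.5 and 566 in ICR. It too was higher in every ICGN array at 8 weeks (0.77 ± 0.17, limma adjusted p = 0.0151), but without the second ICR array at 8 weeks its adjusted p was 0.069. Ccna2, cyclin A2, had signals of 66.8, 68.4 and 126 in ICGN and 63.5, 49.0 and 49.3 in ICR at 8 weeks. At 4 weeks Ccna2 had 271, 231 and 224 in ICGN and 399, 320.4 and 348 in ICR. By this probe set the groups did not overlap at either age. ICGN was above ICR at 8 weeks (0.75 ± 0.20, limma adjusted p = 0.0366) and below ICR at 4 weeks (-0.52 ± 0.20, limma adjusted p = 0.179), where Ccna2 did not pass. The call at 8 weeks was lost without the third ICGN array or without the second or the third ICR array of that age (adjusted p up to 0.165). A second probe set of Ccna2 had 94.5, 95.0 and 124 in ICGN and 85.4, 75.6 and 96.4 in ICR at 8 weeks, and overlapped between the strains at both ages. Tested on its own, it was not called at 8 weeks (0.42, limma adjusted p = 0.343) or in the difference between the ages (0.85, adjusted p = 0.141).

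Plk1, Polo-like kinase 1, stood at 24.4, 24.96 and 42.2 in ICGN and 20.3, 23.3 and 5.57 in ICR at 8 weeks. At 4 weeks Plk1 had 98.0, 99.4 and 116 in ICGN and 160.5, 111 and 124 in ICR. The strains did not overlap at 8 weeks, but the difference did not pass (0.88 ± 0.28, limma adjusted p = 0.0697). Pbk, a mitotic kinase, had signals of 121, 99.5 and 152 in ICGN and 106, 69.7 and 115 in ICR at 8 weeks, and 418, 459 and 359 in ICGN and 670.5, 479 and 619 in ICR at 4 weeks, overlapping at 8 weeks and lower in every ICGN array at 4 weeks. It did not pass in either strain comparison, and changed with age by -1.59 in ICGN and -2.60 in ICR. Aurka, Aurora kinase A, and Melk, another mitotic kinase, fell with age in both strains and did not pass between strains, with values of 0.69 and 0.96 at 8 weeks. Foxm1 is the transcription factor that activates many of these genes. Its representative probe set averaged 117 ± 8.01 in ICGN and 101 ± 12.6 in ICR at 8 weeks, and 183 ± 58.5 in ICGN and 161 ± 34.6 in ICR at 4 weeks (SD, n = 3). It fell with age in ICR (-0.70 ± 0.20, limma adjusted p = 0.03) and did not pass in ICGN (-0.48 ± 0.20, limma adjusted p = 0.0592). The _x_at probe set of Foxm1, tested on its own, changed with age by -0.97 in both strains and did not pass. Another, under the filter on dim signals, had 1.63 to 2.31 in ICGN and 1.32 to 2.36 in ICR at 8 weeks. At 4 weeks it had 7.46 to 22.2 in ICGN and 10.6 to 53.7 in ICR, so the probe sets of this gene differ.

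The chromosomal passenger complex joins Aurora kinase B with Incenp, survivin and borealin and corrects wrong attachments of chromosomes to the spindle. All 4 of its genes were tested, and by the probe sets that stand for the genes Cdca8, which encodes borealin, rose in ICGN at 8 weeks. Cdca8 had signals of 75.9, 64.4 and 70.6 in ICGN and 54.4, 37.3 and 44.5 in ICR at 8 weeks. At 4 weeks Cdca8 had 217, 213 and 205 in ICGN and 279, 191 and 255 in ICR. The strains did not overlap at 8 weeks (0.74 ± 0.16, limma adjusted p = 0.0163), although the call was lost without the first ICGN or the second ICR array of that age (adjusted p up to 0.0627). Other probe sets of Cdca8, tested on their own, gave 0.80 and 0.89 at 8 weeks and were not called (limma adjusted p = 0.0562 and 0.0534). Birc5, survivin, stood at 82.2, 84.7 and 102 in ICGN and 58.7, 31.2 and 85.7 in ICR at 8 weeks, and 197, 255 and 244 in ICGN and 370.1, 229 and 342 in ICR at 4 weeks, with the third ICR array at 8 weeks inside the ICGN range. Its strain difference at 8 weeks did not pass (0.81 ± 0.25, limma adjusted p = 0.0644). Aurkb, the kinase of the complex, was dim at 8 weeks, with 8.67, 13.2 and 20.7 in ICGN and 2.90, 0.826 and 20.8 in ICR at 8 weeks, and 49.9, 46.2 and 44.2 in ICGN and 71.0, 65.7 and 90.7 in ICR at 4 weeks. Its first and second ICR arrays at 8 weeks were lower than any ICGN array, and the third was above all of them. An _x_at probe set of Aurkb had 35.8, 34.0 and 43.6 in ICGN and 10, 22.8 and 19.1 in ICR at 8 weeks, without overlap. Tested on its own, it was called higher at 8 weeks (1.02, limma adjusted p = 0.0251) and in the difference between the ages (1.54, adjusted p = 0.0451). Incenp, the scaffold, stood at 52.6, 50.8 and 67.2 in ICGN and 50.2, 29.1 and 36.9 in ICR at 8 weeks, and 88.0, 94.2 and 72.3 in ICGN and 108, 84.1 and 109 in ICR at 4 weeks, without overlap at 8 weeks. By this probe set it fell with age in ICR (-1.30 ± 0.20, limma adjusted p = 4.5e-04) but did not pass in ICGN (-0.43 ± 0.20, limma adjusted p = 0.0866). The difference between those changes did not pass either (0.87, adjusted p = 0.137).

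The 4 spindle checkpoint members were all tested, and 2 rose in ICGN at 8 weeks. Bub1, a checkpoint kinase at kinetochores, had signals of 33.3, 21.7 and 28.7 in ICGN and 11.8, 5.82 and 15.1 in ICR at 8 weeks. At 4 weeks Bub1 had 81.0, 73.2 and 81.5 in ICGN and 131, 67.9 and 109 in ICR. Every ICGN array was above every ICR array at 8 weeks (log2 fold change 1.09 ± 0.26, limma adjusted p = 0.0156), and the strains overlapped at 4 weeks. The call was lost without the first ICGN or the second ICR array at 8 weeks (adjusted p up to 0.0634). Mad2l1, the Mad2 protein that binds Cdc20, stood at 215, 209 and 333 in ICGN and 151, 159.6 and 216 in ICR at 8 weeks. At 4 weeks Mad2l1 had 413, 449 and 488 in ICGN and 665, 506 and 605 in ICR. It rose at 8 weeks (0.67 ± 0.18, limma adjusted p = 0.0453) with the brightest ICR array just above 2 of the ICGN arrays, and the call was lost without any of 7 of the 12 arrays (adjusted p up to 0.202). Bub1b, the BubR1 protein of the same complex, had signals of 25.7, 9.27 and 44.3 in ICGN and 27.4, 10.1 and 11.4 in ICR at 8 weeks, and 88.8, 61.8 and 114 in ICGN and 90.8, 95.2 and 81.4 in ICR at 4 weeks. Ttk, the kinase that starts checkpoint signalling, stood at 17.3, 8.90 and 25.5 in ICGN and 21.2, 12.7 and 10.48 in ICR at 8 weeks, and 36.3, 54.0 and 36.6 in ICGN and 54.5, 34.5 and 57.8 in ICR at 4 weeks. Both overlapped between the strains at each age and did not pass (0.60 and 0.30 at 8 weeks), while all 4 genes fell with age in both strains.

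Of the kinetochore and centromere members 6 of 7 were tested, and 1 rose in ICGN at 8 weeks. Nuf2, a subunit of the NDC80 complex that grips spindle microtubules, had signals of 11.9, 21.1 and 25.7 in ICGN and 2.99, 11.2 and 4.00 in ICR at 8 weeks. At 4 weeks Nuf2 had 73.5, 71.5 and 82.4 in ICGN and 91.1, 81.2 and 104 in ICR. It was higher in every ICGN array at 8 weeks (1.12 ± 0.27, limma adjusted p = 0.0163), where its signals in both strains lay below the array median. The call was lost without the third ICGN array (adjusted p = 0.0567). Spc25, of the same complex, had signals of 313, 382 and 415 in ICGN and 371, 262 and 408 in ICR at 8 weeks. At 4 weeks Spc25 had 929, 958 and 847 in ICGN and 983, 901 and 1245 in ICR. It overlapped between the strains at both ages (0.29 ± 0.17, limma adjusted p = 0.656 at 8 weeks). Another probe set of Spc25 was called lower in ICGN at 8 weeks (-0.60) when each probe set was tested on its own, the only one of the 77 member probe sets to do so. Cenpf, a large protein of the outer kinetochore, stood at 62.2, 47.9 and 58.4 in ICGN and 37.4, 43.3 and 35.1 in ICR at 8 weeks. At 4 weeks Cenpf had 152, 184 and 143 in ICGN and 189, 118 and 158 in ICR. The strains were apart at 8 weeks, yet the difference did not pass (0.64 ± 0.18, limma adjusted p = 0.0675). Cenpk, a subunit of the inner kinetochore, had signals of 27.5, 36.4 and 52.3 in ICGN and 34.5, 32.8 and 54.5 in ICR at 8 weeks, and 119.9, 122 and 122 in ICGN and 228, 162 and 201 in ICR at 4 weeks, lower in every ICGN array at 4 weeks and overlapping at 8 weeks. Cenpa, the histone of centromeres, and Cenpe, a kinetochore motor, reached 0.73 (adjusted p = 0.0503) and 0.14 at 8 weeks.

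Of the members that act on the metaphase to anaphase transition, all 6 tested, Cdca5 rose in ICGN at 8 weeks. It encodes sororin, which protects the cohesin that holds sister chromatids together. Cdca5 had signals of 47.5, 58.9 and 69.7 in ICGN and 19.9, 22.3 and 41.8 in ICR at 8 weeks. At 4 weeks Cdca5 had 116, 114 and 119 in ICGN and 148, 106 and 139 in ICR. The ICGN arrays lay above the ICR arrays at 8 weeks (1.09 ± 0.22, limma adjusted p = 0.00547), and the strains overlapped at 4 weeks. A second probe set of Cdca5, tested on its own, was not called at 8 weeks (0.43, limma adjusted p = 0.456). Nor was it called in the difference between the ages (0.60, adjusted p = 0.473). Cdca3, which promotes entry into mitosis, stood at 77.2, 74.2 and 74.98 in ICGN and 54.7, 64.4 and 59.8 in ICR at 8 weeks. At 4 weeks Cdca3 had 150.3, 186 and 169 in ICGN and 438, 206 and 264 in ICR. Here the strains did not overlap at either age, ICGN being above ICR at 8 weeks and below it at 4 weeks, and only the difference between the ages passed (1.22 ± 0.29, limma adjusted p = 0.0384). The call of Cdca3 was lost without any of 9 of the 12 arrays (adjusted p up to 0.083). Without the first ICR array at 4 weeks, well above its group, the value was 0.92, and the mean over all probe sets of the gene gave 0.43 (adjusted p = 0.556). Ube2c, the conjugating enzyme of the anaphase-promoting complex, had signals of 64.0, 58.3 and 111 in ICGN and 38.1, 39.2 and 78.9 in ICR at 8 weeks, and 324, 348 and 312 in ICGN and 638, 388 and 502 in ICR at 4 weeks. Cdc20, the activator of that complex, stood at 136, 129 and 132 in ICGN and 125, 119.5 and 155 in ICR at 8 weeks, and 384, 436 and 492 in ICGN and 634, 422 and 609.8 in ICR at 4 weeks. Ube2c was lower in every ICGN array at 4 weeks, and by these probe sets neither gene passed between the strains (0.71 and 0.18 at 8 weeks). The _x_at probe set of Cdc20, tested on its own, was called higher in ICGN at 8 weeks (0.79, limma adjusted p = 0.00753) and in the difference between the ages (1.17, adjusted p = 0.0183). Pttg1 encodes the securin that restrains separase. By its representative probe set it was the 1 member below the median tested gene at 8 weeks (-0.10 ± 0.23, limma adjusted p = 0.35). That probe set had 650.0, 499.5 and 669 in ICGN and 649.7, 768 and 794 in ICR at 8 weeks. It stood at 801, 797 and 939 in ICGN and 2137, 894 and 1465 in ICR at 4 weeks, where the first ICR array was far above the second. Another probe set of Pttg1 had 221, 272 and 278 in ICGN and 204, 199 and 249 in ICR at 8 weeks. Tested on its own, it lay at 0.39 there without passing (limma adjusted p = 0.24). It was called lower with age in ICGN (-0.45, adjusted p = 0.0203), so the probe sets of this gene disagree. Espl1, separase itself, reached 0.22 at 8 weeks and fell with age in ICR (-0.72 ± 0.23, limma adjusted p = 0.0494), the difference between strains not passing (0.28).

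Spindle motors and microtubule proteins formed the largest class, with 11 members tested. They had 1 call between the strains, Kif23 at 8 weeks, where 8.53% of all tested genes were called higher, so that this count is near the share of all genes. Its protein is the motor of centralspindlin, which bundles microtubules at the midzone before cytokinesis. Kif23 had signals of 44.7, 49.1 and 59.8 in ICGN and 6.31, 19.9 and 11.2 in ICR at 8 weeks. At 4 weeks Kif23 had 87.8, 96.0 and 95.6 in ICGN and 185, 115 and 123 in ICR. The groups did not overlap at either age: ICGN was 3.28-fold above ICR at 8 weeks (1.71 ± 0.24, limma adjusted p = 3.1e-04) and below ICR at 4 weeks (-0.51 ± 0.24, limma adjusted p = 0.321), where it did not pass. From 4 to 8 weeks Kif23 fell in ICGN by 0.69 on the log2 scale (limma adjusted p = 0.0364) and in ICR by 2.91 (adjusted p = 1.3e-06). The ICR signals at 8 weeks lay below the array median. The strain value at 8 weeks ran from 1.01 to 2.27 over 22 alternatives, the lowest and the highest with other offsets, and was called in all of them. Nusap1, a protein that bundles spindle microtubules, had signals of 90.9, 82.8 and 104 in ICGN and 78.1, 69.6 and 88.9 in ICR at 8 weeks, and 225, 206 and 249.9 in ICGN and 272, 253 and 317 in ICR at 4 weeks. Hmmr, a spindle-associated hyaluronan receptor, stood at 43.5, 62.1 and 77.0 in ICGN and 47.5, 54.8 and 59.4 in ICR at 8 weeks, and 223, 262 and 188 in ICGN and 315, 248 and 273 in ICR at 4 weeks. Kif22, a motor that pushes on chromosome arms, had signals of 22.8, 22.3 and 28.9 in ICGN and 18.04, 17.6 and 16.1 in ICR at 8 weeks, and 65.3, 83.8 and 52.2 in ICGN and 121, 71.1 and 121 in ICR at 4 weeks. By these probe sets none passed between the strains (0.39, 0.31 and 0.54 at 8 weeks), though Kif22 was higher in every ICGN array at 8 weeks and Nusap1 lower in every ICGN array at 4 weeks. Other probe sets, tested on their own, were called higher at 8 weeks for Kif22 (0.94, limma adjusted p = 0.00656) and Hmmr (0.80, adjusted p = 0.0262), and that of Kif22 also passed in the difference between the ages (1.19, adjusted p = 0.0355).

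Stmn1, a microtubule-destabilising protein that is also made by cells outside the cycle, had signals of 1998, 2239.6 and 2618 in ICGN and 2673, 2318 and 2534 in ICR at 8 weeks. At 4 weeks Stmn1 had 3583, 3749 and 3523 in ICGN and 3906, 3669 and 4508 in ICR. The strains overlapped at 8 weeks (0.05 ± 0.12, limma adjusted p = 0.401), and the fall of this probe set with age was modest, at -0.59 in ICGN and -0.77 in ICR. A second, dimmer probe set of Stmn1, tested on its own, did not pass with age. It changed by -0.28 in ICGN (limma adjusted p = 0.337) and by -0.53 in ICR (adjusted p = 0.169). Kif11, Kif20a, Kif4, Prc1 and Tpx2 build or cross-link the spindle. By the probe sets that stand for them they lay between 0.28 and 0.60 at 8 weeks, and all fell with age in both strains. Of other Tpx2 probe sets, tested on their own, age changes of 0.22 and -0.16 in ICR did not pass, while -2.14 did. In ICGN these changed by -0.01, -0.26 and -0.87 and did not pass. For Kif11 another probe set fell in ICR (-1.17) but did not pass in ICGN (-0.41), and a further probe set fell in both (-1.89 and -1.13). Kif2c, which takes microtubules apart at kinetochores, was the exception: its representative probe set gave 50.9, 60.4 and 66.9 in ICGN and 45.8, 67.2 and 54.0 in ICR at 8 weeks, and 57.6, 66.3 and 76.1 in ICGN and 92.0, 46.5 and 84.7 in ICR at 4 weeks, overlapping in every comparison. Another probe set of Kif2c, of the _x_at kind that may also bind other transcripts, fell with age in ICR (-2.13) when tested on its own. It was also called higher in ICGN at 8 weeks (1.26). A further one, not of that kind, fell with age in ICR (-0.85, limma adjusted p = 0.00988) and did not pass in ICGN (-0.51, adjusted p = 0.0544). The probe sets of this gene therefore disagree.

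The 3 cytokinesis members were all tested. Anln, anillin, a scaffold of the contractile ring, had signals of 67.5, 67.9 and 89.3 in ICGN and 29.8, 19.8 and 42.7 in ICR at 8 weeks. At 4 weeks Anln had 182, 152 and 171 in ICGN and 241, 209 and 251 in ICR. The strains did not overlap at either age, with ICGN 2.45-fold above ICR at 8 weeks (1.29 ± 0.19, limma adjusted p = 6.3e-04) and below it at 4 weeks (-0.43 ± 0.19, limma adjusted p = 0.279), where it did not pass. Racgap1, the partner of Kif23 in centralspindlin, stood at 75.1, 65.5 and 78.4 in ICGN and 53.6, 28.7 and 70.7 in ICR at 8 weeks, and 165, 185 and 182 in ICGN and 202, 181 and 167 in ICR at 4 weeks. Ect2, the exchange factor that centralspindlin recruits to activate RhoA, had signals of 95.4, 159.5 and 175 in ICGN and 93.5, 104 and 179 in ICR at 8 weeks, and 284, 326 and 250.3 in ICGN and 399, 296 and 405 in ICR at 4 weeks. By these probe sets both overlapped between the strains at each age and did not pass at 8 weeks (0.70 ± 0.21, limma adjusted p = 0.0724 for Racgap1, and 0.37 for Ect2). A second probe set of Racgap1 had 29.2, 28.3 and 36.2 in ICGN and 16.2, 14.7 and 14.3 in ICR at 8 weeks, without overlap. Tested on its own, it was called higher at 8 weeks (0.90, limma adjusted p = 0.0167) and in the difference between the ages (1.30, adjusted p = 0.0372). All 3 fell with age in both strains, and Anln fell by 1.01 in ICGN and fell by 2.73 in ICR on the log2 scale.

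Proteins of chromosome structure had the highest share of calls, 4 of 6 at 8 weeks, where 8.53% of all tested genes were called higher. Mki67, the Ki-67 antigen used as the marker of cycling cells, had signals of 117, 109 and 137 in ICGN and 61.7, 49.1 and 79.1 in ICR at 8 weeks. At 4 weeks Mki67 had 432, 494 and 468 in ICGN and 630.3, 545 and 638 in ICR. The ICGN arrays were above the ICR arrays at 8 weeks (2.06-fold, 1.04 ± 0.15, limma adjusted p = 6.2e-04) and below them at 4 weeks (-0.35 ± 0.15, limma adjusted p = 0.24), where the difference did not pass. With age Mki67 was 3.46-fold lower in ICGN (-1.79 ± 0.15, limma adjusted p = 3.1e-06) and 9.12-fold lower in ICR (-3.19 ± 0.15, limma adjusted p = 8.0e-09). Top2a, the topoisomerase that untangles chromosomes, stood at 105, 103 and 111 in ICGN and 73.9, 44.9 and 94.7 in ICR at 8 weeks. At 4 weeks Top2a had 245, 214 and 289 in ICGN and 383, 285 and 378 in ICR. It was higher in every ICGN array at 8 weeks (0.76 ± 0.20, limma adjusted p = 0.0379), but the call was lost without any 1 of the ICGN arrays or the second ICR array of that age (adjusted p up to 0.177). Smc2, a core subunit of condensin, had signals of 144, 166 and 242 in ICGN and 104, 94.0 and 106 in ICR at 8 weeks. At 4 weeks Smc2 had 293, 306 and 334 in ICGN and 295, 324 and 349.9 in ICR. The strains lay close together at 4 weeks (-0.03) and did not overlap at 8 weeks (0.96 ± 0.16, limma adjusted p = 0.00188). Smc4, its partner in condensin, stood at 359, 497 and 503 in ICGN and 292, 325 and 416 in ICR at 8 weeks, and 822, 965 and 867 in ICGN and 1025, 868 and 1224 in ICR at 4 weeks, overlapping at both ages. It did not pass between the strains (0.57 ± 0.17, limma adjusted p = 0.0834 at 8 weeks). A second probe set of Smc4 was called higher at 8 weeks than at 4 weeks in ICGN (0.55), against the fall of the representative one, the only such reversal among the members. Ncapg, a further condensin subunit, rose at 8 weeks (0.93 ± 0.27, limma adjusted p = 0.0414) and Ncapd2 did not pass (0.45), but the call of Ncapg was lost without any of 10 of the 12 arrays (adjusted p up to 0.145).

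**Figure D4:**
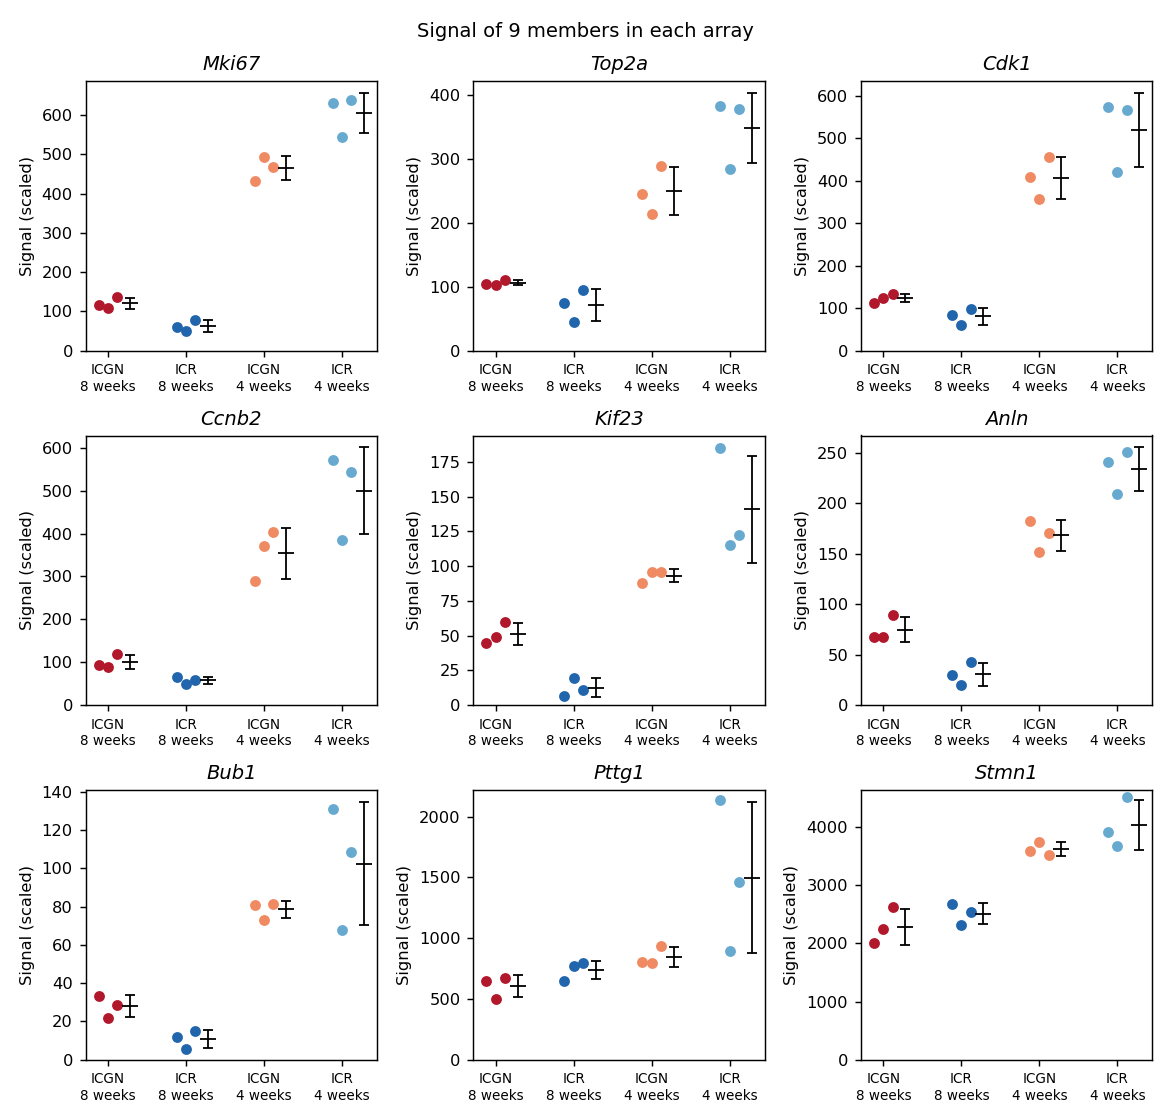
Scaled signal (vertical axis, linear, from 0) of 9 members in each of the 12 arrays (points), with the mean and SD of each group of 3 beside them. Mki67, Kif23 and Anln are higher in all 3 ICGN arrays than in all 3 ICR arrays at 8 weeks and lower at 4 weeks, while Pttg1 and Stmn1 overlap between the strains at 8 weeks.

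Other genes of the division cycle, listed by function beside the members, moved in part the same way, and no test of a list was made. Of all tested genes 8.53% were called higher and 26.1% lower in ICGN at 8 weeks. With age 12.8% were called lower in ICGN and 10.7% in ICR. Of 32 DNA replication genes tested 14 rose and 1 fell in ICGN at 8 weeks (median 0.59), 20 fell with age in ICGN (median -0.65), and 27 fell and 1 rose with age in ICR (median -1.20). Gins2 and Uhrf1, which act at the replication fork and in maintenance methylation, reached 1.47 and 1.46 at 8 weeks, and Pola1 and Prim1, of the primase complex, 1.12 and 0.93. Mcm10 fell in ICGN at 8 weeks (-1.25 ± 0.17, limma adjusted p = 2.8e-05) and rose with age in ICR (0.50). Rrm2, the small subunit of ribonucleotide reductase, was the 1 gene of this list called at 4 weeks, lower in ICGN (-0.85 ± 0.17, limma adjusted p = 0.0111). Of 30 further kinetochore and checkpoint genes 6 rose and 1 fell at 8 weeks (median 0.42), 12 fell with age in ICGN and 18 in ICR. They included Cenpm (1.43 ± 0.25, limma adjusted p = 0.00149), Spdl1 (1.39), Zwilch (1.07) and Kntc1 (0.94), and the 1 that fell was Bub3 (-0.30). Of 24 further spindle and cytokinesis genes 5 rose and 3 fell at 8 weeks (median 0.37), 14 fell with age in ICGN, and 15 fell and 1 rose in ICR. Spag5 (1.27), Cep55 (0.94), Aspm (0.78) and Plk4 (0.68) rose. Kif20b went the other way: it fell in ICGN at 8 weeks (-2.02 ± 0.29, limma adjusted p = 6.6e-05), with 37.9, 53.8 and 51.3 in ICGN and 172, 251 and 363 in ICR at 8 weeks, and was the gene that rose with age in ICR (0.78). Depdc1b (-0.53) and Cit (-0.62) were called lower too, and both calls, like that of Bub3, were lost under the authors' scaling.

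Of 15 anaphase-promoting complex genes 0 rose and 2 fell at 8 weeks, Anapc7 (-0.24) and Anapc13 (-0.42), and 3 fell with age in each strain. Neither strain call was kept under the authors' scaling or quantile normalization. Of 14 cohesin and condensin genes 1 rose, Esco2 (1.11 ± 0.29, limma adjusted p = 0.0234), which acetylates cohesin in S phase, and 3 were called lower, Wapl, Ncaph2 and Stag2 (-0.25 to -0.17), of which 0 kept the call under quantile normalization. Of 13 regulators of the G2/M kinases Cks1b (0.89 ± 0.14, limma adjusted p = 0.00162), a subunit of cyclin-dependent kinases, and Mastl (0.83) rose, while Arpp19 (-0.59) and Cks2 (-0.41) were lower. Quantile normalization ended the calls of Mastl and Cks2. Of 20 regulators of mitotic gene transcription 2 rose and 5 fell at 8 weeks (median 0.02), against 3 and 3 under quantile normalization and 3 and 1 under the authors' scaling. Rbl1 (p107, 0.75 ± 0.13, limma adjusted p = 0.00449) and Nfyb (0.54) rose, and Nfya, another subunit of NF-Y, fell (-0.45). Lin52, a MuvB subunit, had the largest called fall of this list (-0.90 ± 0.34, limma adjusted p = 0.0221), lost under the authors' scaling. Of 17 G1 cyclins, kinases and inhibitors, the inhibitor genes Cdkn1a (p21) and Cdkn1c (p57) rose in ICGN at 8 weeks, by 1.25 and 1.00, and Ccnd1 and Ccnd3 were called lower, but not under quantile normalization (-0.39 and -0.33). Cdkn1a was also higher in ICGN at 4 weeks (1.22 ± 0.25, limma adjusted p = 0.0134), and it fell with age in both strains (-1.09 in ICGN and -1.12 in ICR).

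Markers of other cell types also differed between the groups, and their part in the members' levels was not tested. Of all tested genes 8.53% were called higher in ICGN at 8 weeks and 1.59% at 4 weeks. Macrophage and dendritic cell markers rose in ICGN for 12 of 13 at 8 weeks and 9 of 13 at 4 weeks. Their summed signal was 7882 to 9846 in ICGN and 3582 to 4879 in ICR at 8 weeks, and 4408 to 5132 in ICGN and 2610 to 3458 in ICR at 4 weeks. Tubular injury markers rose for 9 of 10 at 8 weeks and 5 of 10 at 4 weeks. The summed injury signal was 9944 to 14405 in ICGN and 3125 to 3539 in ICR at 8 weeks, and 7354 to 7377 in ICGN and 4592 to 4847 in ICR at 4 weeks. Fibroblast and pericyte markers rose for 5 of 9 at 8 weeks, with sums of 11971 to 12845 in ICGN and 7516 to 9051 in ICR, and at 4 weeks 1 of 9 was lower, with 12245 to 14883 in ICGN and 14334 to 18279.5 in ICR. Like the members, this list fell with age in ICR (6 lower and 1 higher of 9), while in ICGN 3 were higher and 2 lower. Proximal tubule and endothelial markers fell in ICGN at 8 weeks for 8 of 12 and 8 of 10, where 26.1% of all genes were called lower, and under quantile normalization for 5 and 6. At 4 weeks 0 of either list passed. Of the other markers tested, 2 of 4 lymphocyte and 1 of 5 podocyte markers rose at 8 weeks, and both erythroid markers fell, of which 1 kept the call under each other scaling. The summed signal of the 48 members was 6137 to 7927 in ICGN and 5601 to 6752 in ICR at 8 weeks, and 13957 to 14469 in ICGN and 14753 to 19540 in ICR at 4 weeks.

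**Figure D5:**
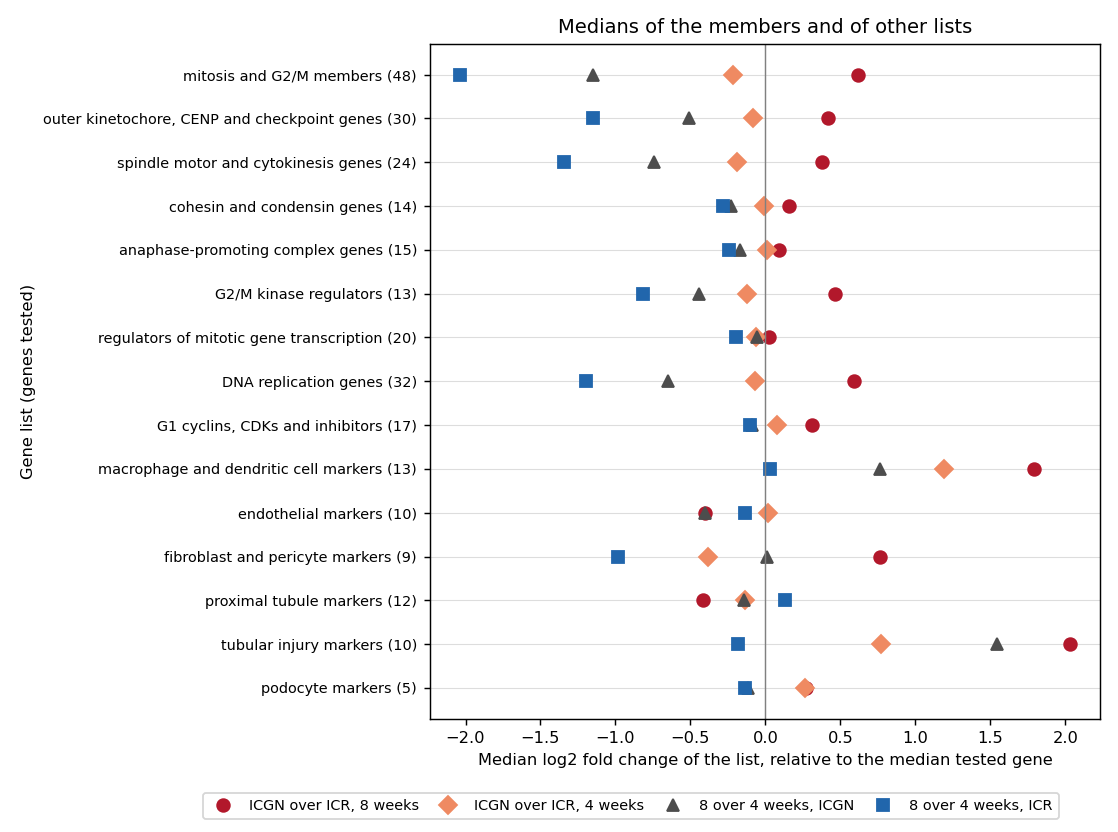
Median log2 fold change against all tested genes (horizontal axis) of the 48 members and of lists of other division cycle genes and cell type markers (rows, genes tested in brackets) in 4 comparisons (symbols). For the age change the members stand further left than any other list of division cycle genes, at -1.15 in ICGN and -2.04 in ICR, and they stand at 0.62 for ICGN over ICR at 8 weeks.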

How the data were processed

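Per the labels' protocols, biotin-labelled RNA of renal cortex from ICGN and ICR mice was measured on Affymetrix 430 2.0 mouse arrays. The deposited intensity of a probe set is linear and came from MAS5, as the submitters' processing notes state without a version. From these intensities each array was scaled here to the common median of 40.4, and log2(signal + 9) was analysed, where 9 is the 25th percentile of all deposited values, so that folds of dim genes are understated. A probe set was tested if above its array's median in at least 3 of 12 arrays. The probe set of highest mean signal stood for a gene, _x_at ones last. In the annotation 34958 probe sets had 1 symbol, 932 had several and 9211 had none. limma 3.58.1 in R 4.3.3 fitted 4 group means to all 12 arrays (8 residual degrees of freedom, mean-variance trend) for 5 contrasts, with Benjamini-Hochberg adjustment over 12385 genes. The test is on the value before the median of the contrast was subtracted. The fit was tested on simulated data. Members, gene lists, alternatives and the naming rule were chosen with earlier results of these data known. That rule took, for values in every array, up to 4 called members a role class by smallest p and a fixed set of cycle markers, up to 4 called genes a list and comparison, and the promoters of the 4 members with the smallest p of the difference between the strain comparisons; values in every array of Kif2c, Kif20b and Pttg1, and those of other probe sets of a member, were added after they were seen. Log2 values of arrays of one group correlated with r of 0.976 to 0.988 across genes. Deviations from the group mean had r from -0.091 to 0.09 across genes between arrays of the same replicate number. Such an r cannot show a shift shared by all genes. In each group the third array was the highest for the largest share of tested genes (44.2 to 63.8%). Pairing by replicate number was therefore not excluded. Alternatives were other offsets, scalings, filters and probe set rules, no trend, a replicate block, arrays of one age alone, and each array left out.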

Additional observations from a re-analysis of the deposited data

Results flagged for a closer look

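The change of the strain difference between the ages (ICGN over ICR at 8 weeks minus the same at 4 weeks, log2 scale relative to the median tested gene) passed the limma test for 11 of the members. It was 2.23 for Kif23, 1.73 for Anln, 1.40 for Mki67, 1.36 for Ccnb2 and 1.28 for Ccna2. Lower values among those that passed were 1.23 for Cdca5, 1.22 for Cdca3, 1.21 for Top2a, 1.10 for Cdk1, 1.04 for Mad2l1 and 1.00 for Smc2. Other genes of the division cycle passed upward as well. They were the kinetochore genes Cenpm at 1.86 and Kntc1 at 1.46, the spindle and centriole genes Spag5 at 1.65 and Plk4 at 0.93, and Cks1b at 1.33 and Cdkn3 at 1.36. Of the DNA replication genes 6 passed upward, and the 4 with the smallest p were Uhrf1 at 1.65, Gins2 at 1.51, Rrm2 at 1.48 and Pola1 at 1.16. Downward, the test was passed by Kif20b at -1.22, Mcm10 at -0.70, Anapc13 at -0.66, Wapl at -0.54 and Anapc7 at -0.39. Over all tested genes 273 passed upward and 703 downward. Groups of 3 arrays are too small for a test of single outlying arrays.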

How the results depend on the processing

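No called value that was recomputed under an alternative changed direction. At 8 weeks 45 of 317 values of the 14 called members lost the call, and for the difference between the strain comparisons 74 of 229 values of 11 members; of 374 age values, recomputed singly for 9 members alone, 0 did. The number of members called in the strain comparison at 4 weeks was 2, both lower, when only the arrays of that age were fitted, and 0 to 2 with 1 array left out, against 0 here. At 8 weeks it was 26 when each array was centred on its median tested gene, 28 under the authors' scaling, 7 when only the arrays of that age were fitted and 8 to 21 with 1 array left out, against 14. For the difference between the strain comparisons it was 20 with that centring, 4 without a filter (18193 genes tested), 7 without a trend and 4 to 11 with 1 array left out, against 11. Of all genes tested 3.75% were called there without a filter and 5.4% without a trend. For the age change it was 24 of 24 tested in ICR and 23 of 24 in ICGN with the filter at the 75th percentile, which leaves fewer members to test. With that filter 36.3% of all genes tested were called in ICR and 23.7% in ICGN. With 1 array left out it was 44 to 46 members in ICR and 38 to 43 in ICGN. The cause of the other shifts was not tested. With the replicate number as a block the counts were 0, 17 and 15 in the strain comparisons and their difference, 41 for age in ICGN and 47 in ICR. The block moved none by over 1.5 times. Of all tested genes it called 3.19, 36.6, 10.6, 20.9 and 31.1% in the same order. Scaling changes how all genes divide. At 8 weeks 1057 were higher and 3228 lower here, 1702 and 1668 under quantile normalization, 1583 and 2426 with centring, and 2227 and 1486 under the authors' scaling. For the difference the split was 273 upward and 703 downward here, 482 and 410 under quantile normalization and 529 and 628 with centring. For age it was 798 higher and 1588 lower in ICGN and 2235 and 1330 in ICR here, 1376 and 1450 in ICGN with centring, and 1723 and 2092 in ICR under quantile normalization. Each probe set was also tested on its own, an alternative chosen after seeing the data. By at least 1 probe set this called 20 members at 8 weeks (19 higher, and Spc25 lower) and 10 for the difference. For age it called 45 lower in ICGN, of which Smc4 was also called higher, and 48 lower in ICR. Of all 21826 probe sets tested 28% were called at 8 weeks, 4.68% for the difference, 19.6% for age in ICGN and 27.5% in ICR. These shares are of probe sets, while a member could be called by any of its probe sets. Dim signals limit the members at 8 weeks: where ICR values lie near or below the array median, the size of a fold depends on the offset.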
